A study of Mus musculus with 3 samples.

Results

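Spinocerebellar ataxias are inherited disorders in which the cerebellum degenerates, and the hMeDIP peaks and modified base-calls at 10 mouse counterparts of their genes are described here. The genes were Atxn1, Atxn2, Atxn3, Atxn7, Tbp, Ppp2r2b, Atxn10, Nop56, Fgf14 and Ttbk2. They were chosen by name, by a rule that uses no measured value but was set with earlier results of these data known, from the 21757 protein-coding genes on chromosomes 1 to 19, X and Y of GENCODE M39. A peak was assigned to a gene when it overlapped the gene body or the 5 kb upstream by at least 1 bp. By this rule 25 peaks belonged to the 10 genes, with 0 among the 497 peaks of replicate 1, 13 among the 8546 of the second and 12 among the 5166 of the third.

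In hMeDIP, an antibody against 5-hydroxymethylcytosine (5hmC) pulls down sheared DNA, and nanopore sequencing of the product then reads each CpG as 5hmC, 5-methylcytosine (5mC) or unmodified C. All 3 libraries were made from cerebellum DNA of 1 C57Bl6Cr mouse, a female of 8 weeks without any genetic or drug treatment, so the spread between replicates is technical. Replicate 1 was precipitated with a whole serum antibody, replicates 2 and 3 with an IgG-purified antibody. Within its own peaks, the calls of replicate 1 were 7.33% 5hmC and 77.0% 5mC, with up to 1591 calls at a site. In the peaks of replicates 2 and 3 outside the ataxia genes, 5hmC made up 28.5% and 27.3% of calls. The antibody cannot be told apart from these and other differences of replicate 1. The pileups held 69910, 104238 and 75624 CpG base-calls in replicates 1, 2 and 3, and the median CpG site was read once in each. The files hold no expression values, so the tissue label was not checked against marker genes.

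5hmC is made from 5mC by the TET enzymes, and in the adult brain it is abundant within the bodies of neuronal genes. The ataxia genes fall into groups by the kind of mutation. Expanded CAG repeats that encode glutamine occur in the human forms of ATXN1, ATXN2, ATXN3, ATXN7 and TBP, and an expanded CAG repeat outside the coding sequence occurs in PPP2R2B. Intronic repeats expand in ATXN10, NOP56 and FGF14, while TTBK2 carries truncating mutations. Purkinje cells, the output neurons of the cerebellar cortex, are lost in many of these disorders.

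Peaks were found at 7 of the 10 genes in replicate 2 and at 5 in replicate 3, and at none in replicate 1. Over all protein-coding genes, replicate 1 had a peak at 1.88%, replicate 2 at 16.5% and replicate 3 at 12%. At least 1 replicate had a peak at 7 of the 10 genes, against 21.7% of all protein-coding genes, and at least 2 replicates had one at 5 of them, against 7.45%. Several of the 10 genes are long, and long genes collected more peaks, from a mean of 0.08 summed over replicates at the lengths around Nop56 to 5.36 at those around Atxn1. Each gene was therefore set beside the 50 other protein-coding genes nearest to it in length, 490 different genes in all. Genes of those lengths led to an expectation of 0.36, 3.86 and 2.82 genes with a peak in the 3 replicates in turn, of 4.38 genes with a peak in any of them, and of 2.36 with one in at least 2.

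The number of peaks lay near that of genes of like length in replicate 2 and above it in replicate 3. The 10 genes held 13 peaks in replicate 2, where 13.24 were expected from length, and 12 in replicate 3, where 6.98 were expected. Replicate 1 held 0 peaks, where 0.42 were expected. A count of 0 in this list allows a share of up to 0.604% of its peaks, which is above the shares of 0.152% and 0.232% in replicates 2 and 3. The mean over replicates was 8.33 ± 7.23 peaks (SD, n = 3). Summed over the replicates, the 25 peaks were 1.21 times the 20.64 expected, and without replicate 3 the ratio was 0.952. The difference from the expectation was 1.45 ± 3.09 peaks per replicate (SD, n = 3), with p = 1 in a two-sided exact sign-flip permutation test over replicates, which cannot give a p below 0.25 with 3 replicates.

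**Figure D1:**
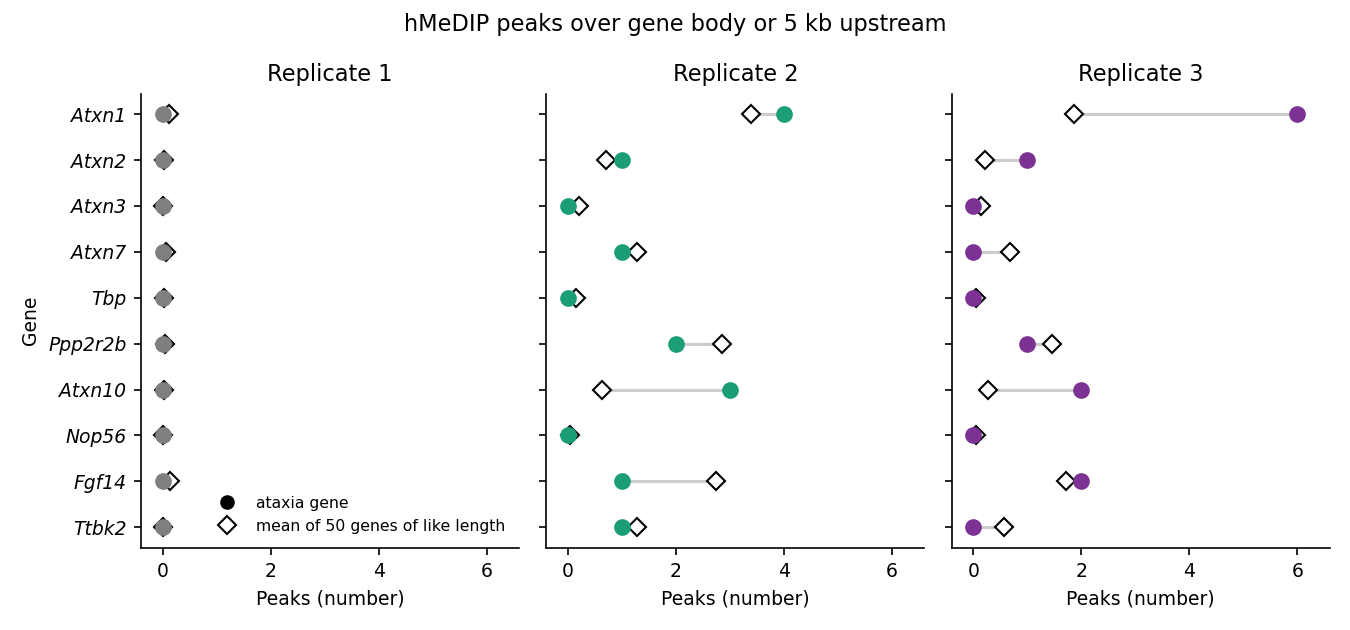
Number of peaks (x axis) at each of the 10 genes (y axis) in replicates 1, 2 and 3, as filled circles, with open diamonds for the mean of the 50 genes of like length in the same replicate. All 10 genes are at 0 in replicate 1, and Atxn1 and Atxn10 lie furthest to the right of their diamonds, Atxn1 with 6 peaks in replicate 3 and Atxn10 with 3 in replicate 2.

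The peaks were of ordinary strength for their lists. Fold enrichment is the peak caller's ratio of reads at the summit to the local background, with 1 added to both. It ranged from 2.77 to 5.72 with a median of 3.80 in replicate 2. In replicate 3 the range was 2.83 to 4.84 and the median 3.84. The medians of all peaks in these lists were 3.83 and 3.87. In replicate 2, 2.89% of the list reached the highest value at the ataxia genes, and in replicate 3, 9.76% did. These values stand for few reads. Estimated from the steps of the fold enrichment, 11 of the 25 summits held 2 reads, 10 held 3, 3 held 4 and 1 held 5. Peak length had a median of 304 bp (302 to 1523 bp), and 14 peaks had the shortest length found among them in their replicate, 304 bp in replicate 2 or 302 bp in replicate 3. The median GC content of the peaks was 46.6%, and the median density was 1.47 CpG per 100 bp. All peaks of replicates 2 and 3 had medians of 49.1% and 1.81 CpG per 100 bp.

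Most of these peaks lay in introns, a count not set beside the intron share of all peaks or of the genes' length. Of the 25 peaks, 19 lay only in introns of the canonical transcript and 2 overlapped an exon, the last one of Atxn1 and of Atxn2. A further 2 lay upstream, of Atxn1 and Ttbk2, and 2 lay within the gene but outside its canonical transcript. The 3 genes over 300 kb, Atxn1 (415 kb), Ppp2r2b (446 kb) and Fgf14 (703 kb), held 16 of the 25 peaks. Genes of their lengths had means of 5.36, 4.36 and 4.60 peaks in turn, of the 20.64 expected for all 10 genes. No peak was found at Atxn3, Tbp or Nop56, which together span 73.3 kb of the 2142 kb covered by the 10 genes.

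**Figure D2:**
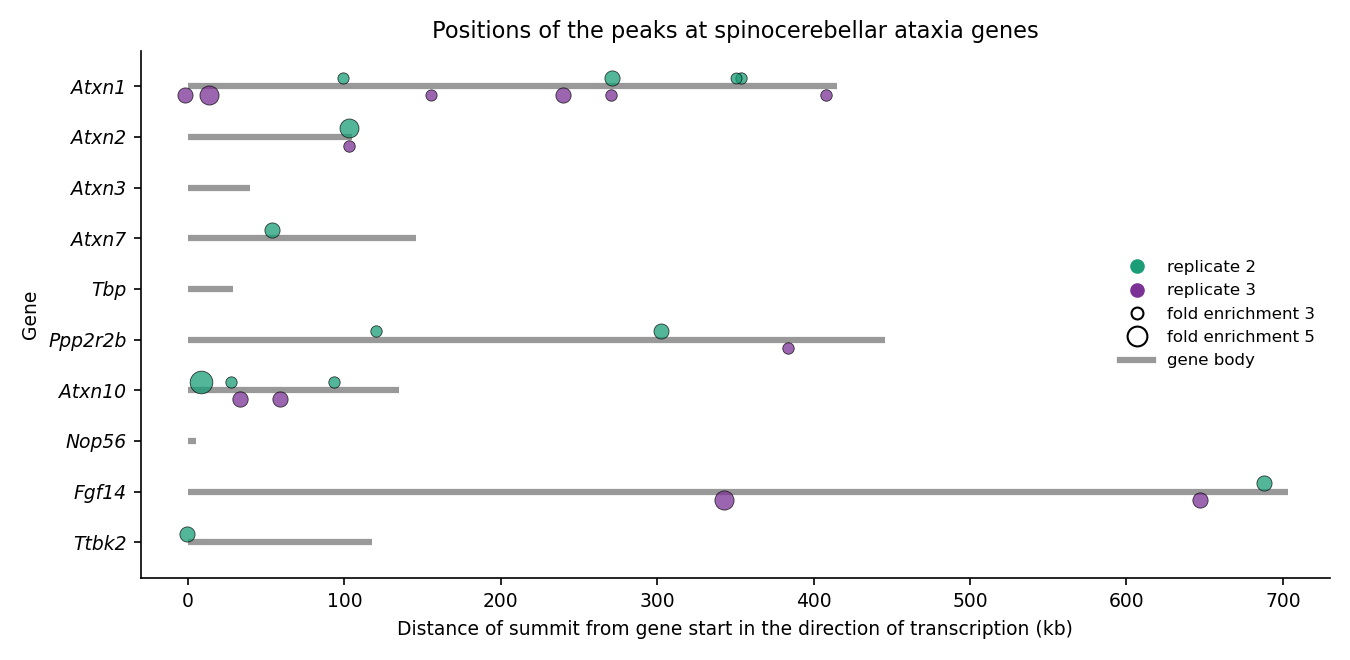
Distance of each peak's summit from the gene start along the direction of transcription (kb, x axis) for the 10 genes (y axis), with replicate 2 above and replicate 3 below the grey gene body and circle size set by fold enrichment. The 10 peaks of Atxn1 spread from -2.0 kb to 408 kb, while both peaks of Atxn2 sit on top of each other at 103 kb, close to the gene's end.

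Base-calls could be made at few CpGs, because the pileups cover only sites inside a peak of some replicate. The windows of the 10 genes hold 17774 CpGs in the reference, of which 156 were called in at least 1 replicate (0.878%). At the genes' own peaks, 5hmC made up 38.5% of 91 calls in replicate 2 (95% confidence interval 28.4 to 49.2%, exact Clopper-Pearson) and 25% of 148 calls in replicate 3 (18.3 to 32.8%). At all other peaks the shares were 28.5% and 27.3%. The mean of 31.7% ± 9.52 at the ataxia genes (SD, n = 2) lay above the 27.9% ± 0.866 at the other peaks, but the genes were higher only in replicate 2 and differed by -2.27 percentage points in replicate 3 (p = 1, exact sign-flip permutation test, smallest possible p 0.5). The share of 5mC was 44.0% in replicate 2 and 58.8% in replicate 3, beside 44.7% and 46.6% at other peaks (p = 1, the same exact test).

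Unmodified C was the scarcest state over the pooled calls of these genes in replicates 2 and 3, as it was at other peaks. Single genes could differ, with 6 calls of C and 5 of 5hmC at Atxn1 in replicate 2. Atxn10 had 9 and 5 in replicate 3. Over these genes together, C made up 17.6% of calls in replicate 2 and 16.2% in replicate 3, against 26.8% and 26.1% at other peaks. The difference of -9.55 ± 0.492 percentage points (SD, n = 2) had the same direction in both replicates, with p = 0.5, the smallest the exact sign-flip permutation test can give. The interval of replicate 2 (10.4 to 27.0%) holds the value of the other peaks, and that of replicate 3 (10.7 to 23.2%) does not. Calls on the same read are not independent molecules, so these intervals cover counting error only. Replicate 1, which had no peak at these genes, still had 32 calls at 31 CpGs in regions where other replicates had a peak. Of these, 14 were 5hmC (43.8%, 26.4 to 62.3%), beside 30.2% at all other called sites outside the peaks of replicate 1.

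**Figure D3:**
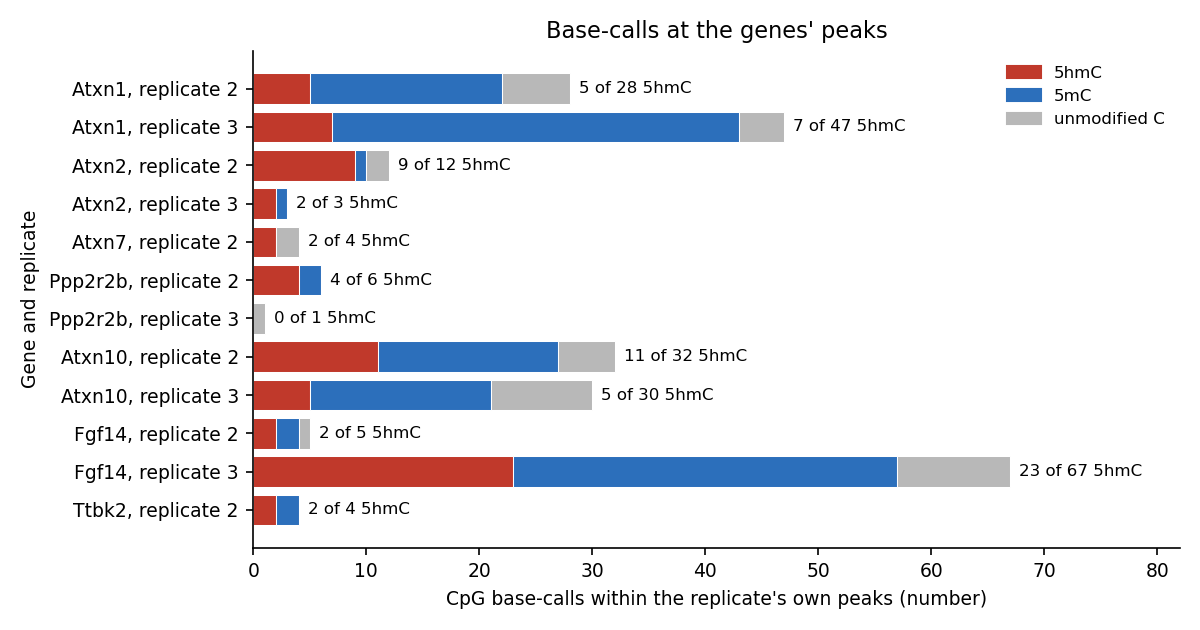
Number of CpG base-calls (x axis) within a replicate's own peaks for each gene and replicate with calls (y axis), split into 5hmC, 5mC and unmodified C. Atxn1 and Fgf14 have the most calls, with 7 of 47 and 23 of 67 as 5hmC in replicate 3, and Atxn2 has 9 of 12 as 5hmC in replicate 2.

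Atxn1 encodes a nuclear protein that represses transcription together with Capicua. The gene lies on the reverse strand of chromosome 13 (chr13:45703231-46118484, GRCm39, 415 kb). It had the most peaks of the 10, numbering 0, 4 and 6 in the 3 replicates. At a q-value of at most 0.01 it had 4 peaks. With a fold enrichment of at least 4 it had 1, and so did Atxn2, Atxn10 and Fgf14. The 50 genes of like length had a mean of 5.36 peaks summed over replicates and a range of 0 to 26, and 40 of them had fewer than the 10 of Atxn1 while 9 had more. Its window held 11.6 CpG per kb, above their median of 8.31 per kb (range 3.85 to 15.7). The part of this in the peak number was not tested. The gene nearest in length, Nfib, which encodes a transcription factor, had 0, 7 and 3. No region of Atxn1 carried a peak in 2 replicates. The nearest pair lay in intron 6, where a peak of replicate 2 (chr13:45846765-45848287) and one of replicate 3 (chr13:45848289-45848590) were separated by 1 base.

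The peak of highest fold enrichment in Atxn1 was 4.83 in replicate 3, in intron 2 at 13.4 kb from the gene start (chr13:46104699-46105291), with both of its calls 5mC. A peak in the last exon, exon 8 (chr13:45710380-45710681), reached 2.90 in replicate 3. Of its 302 bp, 148 are coding and 154 untranslated. All 15 of its CpGs were read there, and 0 of 19 calls were 5hmC (upper limit 17.6%) while 18 were 5mC. In replicate 2, which had no peak at this exon, 4 of 13 calls were 5hmC (30.8%, 9.09 to 61.4%). The 2 intervals overlap. Upstream of the gene, a peak of replicate 3 at -2.0 kb (chr13:46120429-46120730, fold enrichment 3.83) lay inside a long noncoding RNA gene of the opposite strand, 5033430I15Rik. Over all peaks of Atxn1, 5hmC was called in 12 of 75 cases (16%, 8.55 to 26.3%) and 5mC in 53 (70.7%). The share of 5hmC was 17.9% in replicate 2 and 14.9% in replicate 3.

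Atxn2 encodes an RNA-binding protein and held the only region found in 2 replicates. The gene lies on the forward strand of chromosome 5 (chr5:121849400-121954556, 105 kb) and had 0, 1 and 1 peaks in replicates 1, 2 and 3. Of its 50 genes of like length, 40 had fewer than 2 peaks in all and 7 had more. The peaks overlapped near the 3′ end of the gene and merged into chr5:121952009-121952579. The peak of replicate 2 (fold enrichment 4.79) lay in intron 24 and ended 30 bases before exon 25, the last exon. That of replicate 3 (2.90) ran from intron 24 into exon 25, with 123 bp of intron, 26 bp of coding sequence and 153 bp of untranslated sequence. The mean fold enrichment was 3.85 ± 1.33 (SD, n = 2). The count of 1 repeated region fell to 0 when the overlap had to reach 0.5 of the shorter peak, with peaks of fold enrichment of at least 4 or with a q-value of at most 0.01.

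Of the 7 genes with peaks, Atxn2 had the largest share of 5hmC when calls were pooled by gene. Of single regions, 3 with few calls in Atxn1 had larger shares, with 5 of 6 (chr13:45848289-45848590), 6 of 8 (chr13:45768153-45768456) and 1 of 1 (chr13:45764719-45765022) over all replicates. In replicate 2, 9 of 12 calls in the merged region were 5hmC (75.0%, 42.8 to 94.5%), and in replicate 3, 5 of 7 were (71.4%, 29.0 to 96.3%). Replicate 1 had no call there. Within the peaks as called in each replicate the sum was 11 of 15 (73.3%, 44.9 to 92.2%), an interval that does not overlap that of Atxn1, although in replicate 3 alone the intervals of the 2 genes overlapped. The genes were not tested against each other, since the calls come from few reads of 1 mouse. Of the 9 CpGs of the region, 5 were read in both replicates. At 3 of these, 46, 80 and 197 bp from the region start, every call was 5hmC, and at the one 343 bp from the start both calls were 5mC. Over all 10 genes, 1 of 24 merged regions was found in 2 or more replicates (4.17%), beside 800 of 13342 in the whole series (6.00%).

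**Figure D4:**
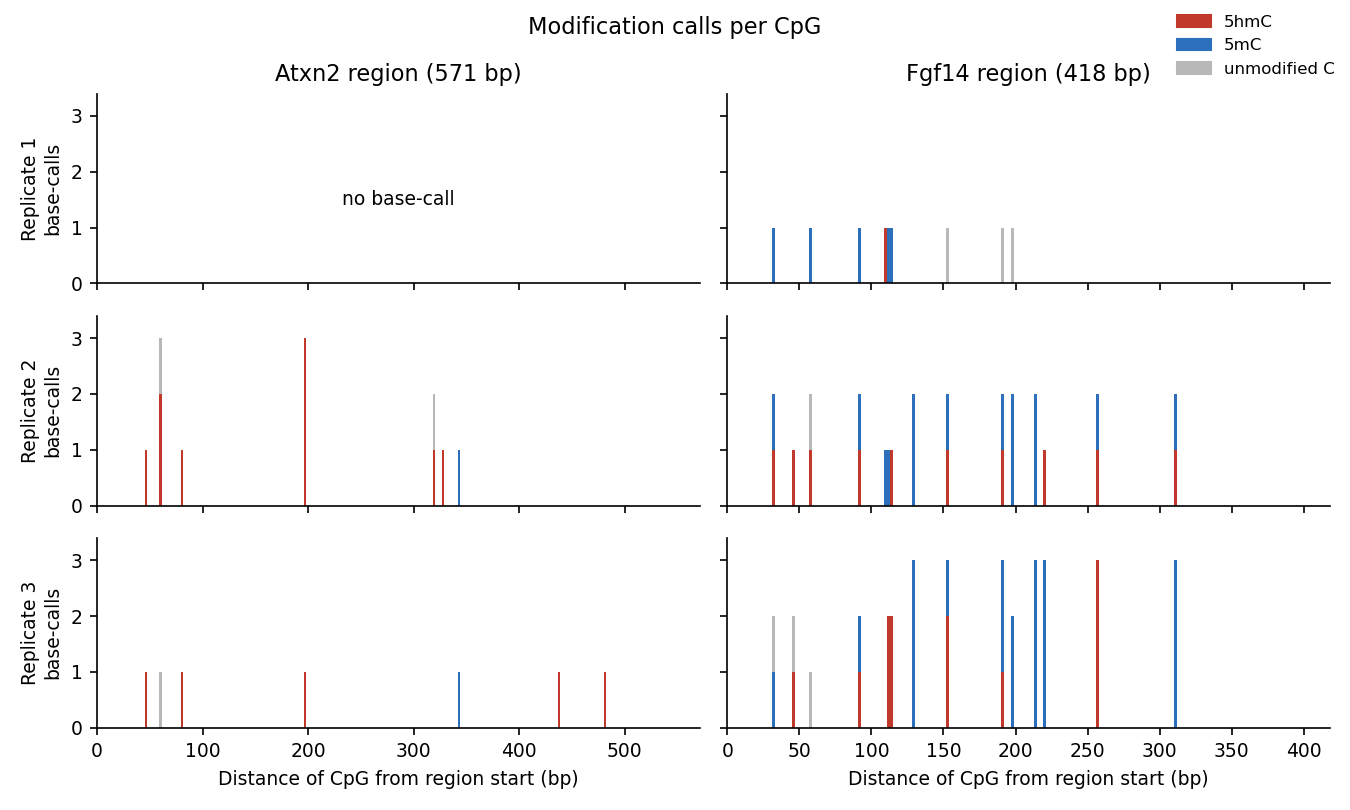
Base-calls per CpG (y axis) against the distance of the CpG from the start of the region (bp, x axis) for the Atxn2 region (left) and the Fgf14 region read in all replicates (right), in rows for replicates 1, 2 and 3, coloured by state. In Atxn2 the CpG at 197 bp is 5hmC in all 4 calls of replicates 2 and 3, and in Fgf14 the CpGs at 129 and 214 bp are 5mC in all 5 calls each.

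Atxn3, Atxn7 and Tbp completed the group of glutamine genes and carried 1 peak between them. Atxn3 encodes a deubiquitinating enzyme (chr12:101885157-101924512, 39.4 kb) and Tbp the TATA-binding protein of the basal transcription machinery (chr17:15720150-15748641, 28.5 kb). Both had 0 peaks in each replicate, and so did 40 and 43 of the 50 genes of like length. Atxn7 encodes a subunit of the SAGA histone acetyltransferase complex (chr14:8362441-8508505, 146 kb). Its peaks numbered 0, 1 and 0, beside a mean of 2.02 in all for genes of like length. The peak of replicate 2 lay in intron 4 (chr14:8454487-8454790, fold enrichment 3.83), and 2 of its 4 calls were 5hmC and 2 unmodified C.

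None of the peaks covered the longest glutamine tract of its gene. The longest in-frame run of CAG and CAA codons in the mouse reference had 13 codons in Tbp (exon 3), 6 in Atxn3 (exon 10), 5 in Atxn7 (exon 3) and 3 in both Atxn1 (exon 7) and Atxn2 (exon 22). The Atxn7 tract lay 1.80 kb from the Atxn7 peak, the Atxn2 tract 2.99 kb from the Atxn2 region and the Atxn1 tract 9.88 kb from the peak in exon 8. Each tract was the longest anywhere in the coding sequence. Whether it is the counterpart of the repeat that expands in patients was not checked, so these distances are not distances to the disease repeats. The 3 longest tracts are shown because the human disease expands this kind of codon, with CAA codons in capitals. They are read along the coding strand of GRCm39, at chr17:15724653-15724691 (forward strand), chr12:101892822-101892839 (reverse strand) and chr14:8456593-8456607 (reverse strand).
Tbp exon 3: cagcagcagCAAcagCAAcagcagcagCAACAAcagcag
Atxn3 exon 10: CAAcagcagcagcagcag
Atxn7 exon 3: cagcagcagcagcag

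Atxn10 had the strongest single peak and more peaks than almost all genes of its length. It encodes an armadillo-repeat protein needed for the survival of cerebellar neurons in culture and lies on the forward strand of chromosome 15 (chr15:85213498-85348594, 135 kb). It had 0, 3 and 2 peaks in replicates 1, 2 and 3, where the genes of like length had means of 0.02, 0.62 and 0.26. Of those 50 genes, 49 had fewer than 5 peaks in all and 1 had more. At a q-value of at most 0.01 Atxn10 had 3 peaks, and at a fold enrichment of at least 4 it had 1. It was not ranked among genes of like length at these thresholds. The gene nearest in length, Lyn, which encodes a Src-family kinase, had 0, 1 and 0. All 5 peaks were intronic and none overlapped one of the other replicate. The CpG density of the Atxn10 window was 10.6 per kb, above the median of 8.52 per kb for its genes of like length (range 4.60 to 18.5), and the part of this in the peak number was not tested.

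The peak of highest fold enrichment at any of the 10 genes was 5.72 in replicate 2, in intron 1 of Atxn10 at 8.56 kb from the gene start (chr15:85221800-85222264, q = 2.42e-06). It overlapped no annotated exon but directly adjoined one of a noncanonical transcript. In it 9 of 16 calls were 5hmC (56.3%, 29.9 to 80.2%) in replicate 2, and the single call of replicate 3 was unmodified C. The other 4 peaks had fold enrichments of 2.86 and 2.87 in replicate 2 and 3.85 and 3.87 in replicate 3. Over all 5 peaks, 16 of 62 calls were 5hmC (25.8%, 15.5 to 38.5%), with 34.4% in replicate 2 and 16.7% in replicate 3. The sequence around the strongest summit is chr15:85221904-85222203 of GRCm39, forward strand, in lower case with CpGs called 5hmC at least once in any replicate in capitals, and it was chosen after its values were seen. It holds 4 CpGs, and each of the 3 that were called had a 5hmC call.
Atxn10 intron 1: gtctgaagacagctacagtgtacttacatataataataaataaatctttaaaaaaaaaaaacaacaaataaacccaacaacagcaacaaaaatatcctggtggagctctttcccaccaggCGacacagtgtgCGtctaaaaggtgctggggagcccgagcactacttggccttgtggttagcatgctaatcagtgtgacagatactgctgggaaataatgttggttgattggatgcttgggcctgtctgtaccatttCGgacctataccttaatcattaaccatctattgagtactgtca

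Nop56 and Fgf14 are the other genes with intronic expansions in patients. Nop56 encodes a core protein of the box C/D small nucleolar ribonucleoproteins. It is the shortest gene of the 10 (chr2:130115808-130121238, 5.43 kb) and had 0 peaks in each replicate, as did 46 of the 50 genes of like length. Its window was the richest in CpG, with 18.6 per kb. Fgf14 encodes an intracellular fibroblast growth factor homologue that binds voltage-gated sodium channels. It is the longest of the 10 (chr14:124211258-124914539, reverse strand, 703 kb) and had 0, 1 and 2 peaks, beside means of 0.14, 2.74 and 1.72 for genes of like length. Of these, 29 had fewer than 3 peaks in all and 15 had more. The Fgf14 window had the lowest CpG density of the 10, 4.26 per kb against a median of 7.00 for genes of like length.

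Base-calls were most numerous per peak in Fgf14. The strongest of its peaks (chr14:124571460-124571877, fold enrichment 4.84 in replicate 3) lay 343 kb from the gene start, within the gene but outside the canonical transcript. It was the only one of the 24 regions with calls in all 3 replicates, although only replicate 3 had a peak there. Of the calls, 1 of 9 was 5hmC in replicate 1. Replicate 2 had 10 of 25 (40.0%, 21.1 to 61.3%) and replicate 3 had 12 of 34 (35.3%, 19.7 to 53.5%). All 15 CpGs of the region were read in at least 2 replicates. At 129 and 214 bp from the region start all 5 calls were 5mC, while at 257 bp 4 of 5 calls were 5hmC and at 114 bp 3 of 4 were. Both states thus stood side by side along the region, and 5mC was the commonest with 38 of 68 calls (55.9%).

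The peak in intron 3 of Fgf14 (chr14:124267237-124267613, fold enrichment 3.85 in replicate 3) had 11 of 33 calls as 5hmC in replicate 3 (33.3%, 18 to 51.8%), and both calls of replicate 2 were 5hmC. The peak of replicate 2 (chr14:124226640-124227025, 3.83), also in intron 3, had 2 of 5. Over the 3 peaks 25 of 72 calls were 5hmC (34.7%, 23.9 to 46.9%). The sequences around the summits of both peaks of replicate 3 are shown because they hold the most base-calls of all regions, and they were chosen after their values were seen. They are chr14:124571600-124571877 and chr14:124267244-124267543 of GRCm39, forward strand, which is opposite to the strand of the gene, with 5hmC-called CpGs in capitals. In the first, 5 of 7 CpGs were called 5hmC at least once, and in the second, 8 of 12.
Fgf14 outside the canonical transcript: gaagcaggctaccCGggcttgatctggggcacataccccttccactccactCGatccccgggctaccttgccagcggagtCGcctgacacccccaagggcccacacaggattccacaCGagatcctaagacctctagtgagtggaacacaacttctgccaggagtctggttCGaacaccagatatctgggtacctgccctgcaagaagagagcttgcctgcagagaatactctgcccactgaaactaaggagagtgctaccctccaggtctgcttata
Fgf14 intron 3: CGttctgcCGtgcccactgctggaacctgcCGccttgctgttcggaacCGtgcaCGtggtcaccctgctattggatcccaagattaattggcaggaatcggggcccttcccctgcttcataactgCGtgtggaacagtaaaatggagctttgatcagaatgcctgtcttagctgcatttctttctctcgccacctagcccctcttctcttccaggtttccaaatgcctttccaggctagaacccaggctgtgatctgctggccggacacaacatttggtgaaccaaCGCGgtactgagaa

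The repeat units that expand in patients were searched on both strands of the 10 genes as the longest uninterrupted run of CAG, of GAA, of the pentamer ATTCT and of the hexamer GGCCTG. In Fgf14, GAA ran for at most 3 copies on the coding strand and for 27 on the other, 39.9 kb from the nearest peak. Long runs of GAA also occurred in Ppp2r2b, with 29 copies on the coding strand and 28 on the other, and in Atxn1, with 22 on each. The pentamer did not run beyond 1 copy in Atxn10, nor the hexamer in Nop56. A match describes the mouse reference and not the repeat of the human locus.

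Ttbk2 encodes tau tubulin kinase 2, which starts the growth of primary cilia. It lies on the reverse strand of chromosome 2 (chr2:120563297-120681085, 118 kb) and had 0, 1 and 0 peaks, beside means of 0.00, 1.28 and 0.56 for genes of like length. The peak of replicate 2 was the nearest to a gene start among the 10 genes. It lay upstream, with its summit at -0.724 kb from the start (chr2:120681566-120681869, fold enrichment 3.83) and inside AV039307, a long noncoding RNA gene of the opposite strand. Of its 4 calls 2 were 5hmC and 2 were 5mC, and the single call of replicate 3 was 5hmC.

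Ppp2r2b encodes a brain-enriched regulatory subunit of protein phosphatase 2A. The gene (chr18:42770497-43216192, reverse strand, 446 kb) had 0, 2 and 1 peaks in replicates 1, 2 and 3, beside means of 0.04, 2.86 and 1.46 for genes of like length. Of these genes, 26 had fewer than 3 peaks in all and 20 had more. The gene nearest in length, Shank2, which encodes a postsynaptic scaffold protein, had 0, 2 and 0. The strongest peak was 3.80 in replicate 2, in intron 2 (chr18:42913557-42913860), with 2 of 3 calls as 5hmC in replicate 2 and 2 of 3 in replicate 1. Over its 3 peaks 4 of 7 calls were 5hmC (57.1%, 18.4 to 90.1%), an interval too wide to place the gene among the others.

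Because the replicates contributed unequally by gene, the genes were ordered by their share of 5hmC within each replicate. In replicate 2 the order ran from Atxn2 (9 of 12 calls, 75.0%) through Ppp2r2b (4 of 6), Atxn7 and Ttbk2 (2 of 4 each), Fgf14 (2 of 5) and Atxn10 (11 of 32, 34.4%) to Atxn1 (5 of 28, 17.9%). In replicate 3 it ran from Atxn2 (2 of 3) through Fgf14 (23 of 67, 34.3%), Atxn10 (5 of 30, 16.7%) and Atxn1 (7 of 47, 14.9%) to Ppp2r2b (0 of 1). Neighbours in each order had overlapping intervals. With all calls in the genes' regions pooled over replicates, those of replicates without a peak included, Atxn1 stood at 26 of 107 (24.3%, 16.5 to 33.5%) and Atxn2 at 14 of 19 (73.7%, 48.8 to 90.9%). Of the 25 peaks, 18 had at least 1 call of 5hmC and 7 had calls but none of 5hmC. Only 9 peaks had 10 or more calls.

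A further 28 genes named in spinocerebellar ataxias, a list written from general knowledge that may not be complete, were counted in the same way. A peak was found at 3, 11 and 10 of the 28 in the 3 replicates in turn, and at 15 in any of them. These are 10.7%, 39.3%, 35.7% and 53.6% of the list, beside 1.88%, 16.5%, 12% and 21.7% of all protein-coding genes, which were not matched in length. Their peaks numbered 3, 43 and 29 (75 in all), beside 1.12, 21.78 and 12.66 for genes of like length (35.56 in all). Of the 75, 51 belonged to the 4 genes with the most peaks, where 10.04 were expected from length, and 24 to the other genes, where 25.52 were expected. This split follows from choosing genes by their peaks and was not tested. Cacna1a, the pore subunit of the P/Q-type calcium channel of Purkinje cells, had 0, 12 and 8. Dab1, an adaptor of Reelin signalling, had 0, 11 and 4. Kcnd3, an A-type potassium channel, had 0, 4 and 5, and Fat2, a giant cadherin of granule cells, had 0, 3 and 4.

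**Figure D5:**
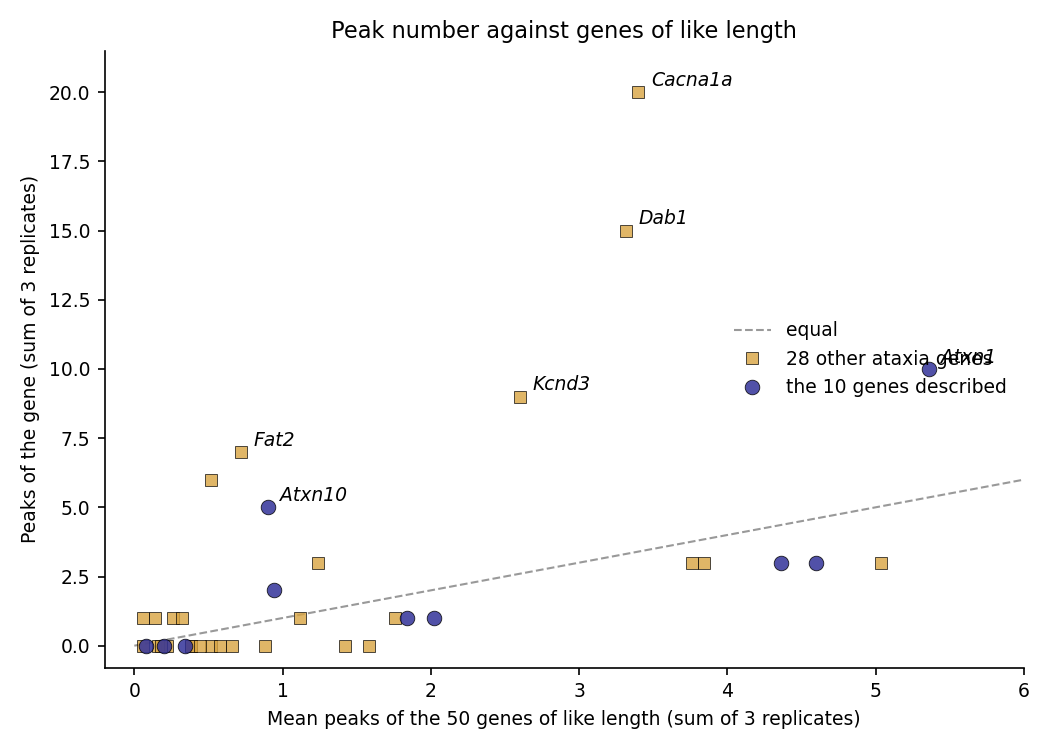
Peaks of each gene summed over 3 replicates (y axis) against the mean of its 50 genes of like length (x axis), with circles for the 10 genes described, squares for the 28 other ataxia genes and a dashed line of equality. Cacna1a with 20 peaks, Dab1 with 15 and Atxn1 with 10 lie highest, and Atxn10 with 5 lies above the line at 0.90 expected.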

How the data were processed

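Mouse cerebellum DNA was precipitated in 3 replicates, and replicate and antibody were taken from the labels. The authors base-called reads with Dorado 0.5.1, aligned them to mm39 (GRCm39) with minimap2 2.24 and called peaks per replicate against untreated DNA with MACS2 2.2.6. The deposited peak lists hold a fold enrichment (ratio), −log10 p-values and q-values, and a display score. The deposited modkit 0.2.8 pileups hold counts of 5hmC, 5mC and C calls per CpG and their percent, for the forward strand and within peaks of any replicate only. Removal of blacklisted peaks is stated but was not checked.

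Windows, like-length genes (50 nearest in log length, members and wider list left out) and shares were computed with Python 3.11.15, numpy 2.4.6, pandas 2.3.3 and scipy 1.17.1 on GENCODE M39, and figures with matplotlib 3.10.9. Counting functions were tested on simulated data. Reads at a summit were computed as fold enrichment times the background plus 1, less 1, with the background taken from the list's commonest value (0.0446 reads in replicate 2, 0.0331 in replicate 3), and 23 of 25 lay within 0.05 of a whole number. Because replicate 1 had no peak at the genes, differences were tested in place of the planned log2 ratios, and shares rest on 2 replicates.

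The genes, lists and tests were chosen with earlier results of these data known. All 10 genes were to be named, with each gene's peak of highest fold enrichment, every region in 2 or more replicates, every peak over an exon or upstream, the gene nearest in length for the 3 genes with most peaks (2 tied for the third place) and the 4 genes of the wider list with most peaks. One of these nearest genes and the sequence of the repeated region are not reported here. Protein sequences were not used here. Alternatives covered peak thresholds, the window, the like-length genes, minimum calls, site weighting and each replicate left out.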

Additional observations from a re-analysis of the deposited data

How the results depend on the processing

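All replicates belong to 1 group, so no groups of samples were compared, and each test used differences taken within a replicate. With peaks of fold enrichment of at least 4, the mean number of peaks and of genes with a peak was 1.33 each. The median fold enrichment was then 5.04 and the share of 5hmC 48.8%. The difference of 5mC from other peaks, 5.70 percentage points as reported, was -10.1 points at this threshold. As a mean of single sites it was 12.7 points. At a q-value of at most 0.01 the mean number of peaks was 4.67 and the 5mC difference -0.036 points, and with either threshold, or when sharing needed a longer overlap (at least 0.5 of the shorter peak), 0 regions were found in 2 replicates. Atxn1 then had 1 peak (fold enrichment) or 4 (q-value) in place of 10, and Atxn10 had 1 or 3 in place of 5. With the gene body only, the median fold enrichment was 3.59. With at least 3 calls per site, the shares were 49.7% for 5hmC and 39.4% for 5mC, and the 5mC difference was -19.5 points. The 5hmC difference, 3.84 points as reported, was -1.74 as a mean of single sites but 9.32 at the stricter q-value. It was 25.7 at the higher fold enrichment, from 1 peak each at Atxn1, Atxn2, Atxn10 and Fgf14. With at least 3 calls per site it was 31.4, from sites of at most 3 calls in replicate 2 and 4 in replicate 3. Sites at the other peaks had up to 557 and 332 calls in these replicates, so the sites compared were unlike in depth. Over all called sites in the windows the 5hmC difference was 15.6 and the 5mC difference -11.2 points. There the calls of replicate 1, all outside its own peaks, are set against calls inside its other peaks. With the same sites set against other sites in the mix of calls inside and outside own peaks that the genes had in each replicate, an alternative chosen after seeing the data, the 5hmC difference was 8.00 points (13.5, 10.4 and 0.115 in replicates 1, 2 and 3, p = 0.25, the smallest of the exact permutation test) and the 5mC difference 0.986 points. No site in the genes' own peaks had 5 calls in a replicate, so that alternative gave no value. Leaving out each replicate in turn moved the mean number of genes with a peak from 2.5 (without replicate 2) to 6, repeated regions from 0 to 1, the ratio to genes of like length from 0.952 (without replicate 3) to 1.62, the 5hmC difference from -2.27 (without replicate 2) to 9.96 points and the 5mC difference from -0.763 (without replicate 3) to 12.2 points. The ratio lay between 1.04 and 1.54 under all alternatives of threshold, window and like-length genes, with no exact p below 0.5. The cause of these changes was not tested, and a depth of at most 4 calls per site in the genes' peaks limits every share.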
